A study of Homo sapiens with 4 samples.

Results

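Immediate early genes were followed in K562 cells before and after treatment with hemin. The 10 genes are FOS, FOSB, FOSL1, JUN, JUNB, JUND, EGR1, IER2, ATF3 and DUSP1, chosen by name from the 61498 genes of the deposited tables. Each symbol matched a single gene identifier, all 10 were read in every library, and all 10 passed the filter on low counts. K562 is a line of human erythroleukaemia cells that takes on erythroid features when it is exposed to hemin, the oxidised form of heme. Poly(A) RNA was sequenced from 2 libraries of untreated cells and 2 libraries of cells kept with 50 µM hemin for 108 h. The labels name no genetic change between the groups, and the methods give the same line and medium for both. No time in culture is stated for the untreated cells, so it is not known whether the groups were matched for it. Nothing in the labels or methods says that the 2 libraries of a group came from separate cultures, so the spread between them may be technical. The p-values rest on that spread only in part, since each gene's variance was moderated toward that of other genes.

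Immediate early genes are those that cells transcribe within minutes of a signal, using transcription factors that are already present. The FOS and JUN proteins pair through leucine zippers to form AP-1, which binds a short DNA motif. FOS family members pair only with partners such as JUN proteins, whereas JUN proteins also pair with each other. In myeloid and erythroid cells these factors are among the readouts of growth factor and stress signalling through the MAP kinases. The hemin libraries were collected after 108 h, so the values below are levels at that time and not the early response.

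The deposited expected counts summed to between 7455447 and 8241534 per library, and 12.8% to 13.6% of them lay on the mitochondrial genome. The erythroid marker GATA1 stood between 112.63 and 121.06 TPM (a level scaled by transcript length and library depth) in the 4 libraries. The 6 markers of T and B cells summed to between 0.54 and 3.04 TPM, with CD3E, CD2 and MS4A1 at 0 throughout, and CD3D, the highest of them, was read by 6, 5, 1 and 0 counts. The 6 markers of monocytes and granulocytes summed to between 0.16 and 0.97 TPM, with S100A9 at 0 in all libraries and LYZ the highest at 0.54 TPM or below. In such bulk samples, fewer cells of a type and less RNA per cell cannot be told apart. Of 14458 genes tested with edgeR, 1012 were called higher after hemin and 1033 lower, at an adjusted p below 0.05. With library size as the only scaling, that split was 729 higher and 1358 lower.

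The sequences upstream of the start are shown first for the 5 members in which a searched motif was found. Sequence near the start can hold elements through which immediate early promoters are switched on, but such elements can also lie outside these windows. RefSeq windows of GRCh38.p14, from 250 bases before to 50 bases after the start, were given for 9 of the 10 members. FOSL1 had no entry. The windows named 10 starts, with 2 for ATF3. The second ATF3 window, chr1:212614768-212615067, lay inside the gene span, and whether transcription starts there was not tested. The searched motifs were the AP-1 element TRE (TGAGTCA), the cyclic AMP response element CRE (TGACGTCA), its core TGACGT, the EGR element GCGNGGGCG, and the CArG box, which serum response factor binds. Both strands were searched. Each full CRE also holds the core on both strands, and the core was added to the search after the sequences and the expression values had been seen. The 250 bases before the start are printed 5′ to 3′ along the gene, with every match in capitals.
FOS, chr14:75278578-75278827, plus strand: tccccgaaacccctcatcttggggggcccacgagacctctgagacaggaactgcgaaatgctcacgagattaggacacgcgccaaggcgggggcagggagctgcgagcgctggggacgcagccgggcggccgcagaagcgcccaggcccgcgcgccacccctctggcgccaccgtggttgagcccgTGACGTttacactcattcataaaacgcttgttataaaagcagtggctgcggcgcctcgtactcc
FOSB, chr19:45467746-45467995, plus strand: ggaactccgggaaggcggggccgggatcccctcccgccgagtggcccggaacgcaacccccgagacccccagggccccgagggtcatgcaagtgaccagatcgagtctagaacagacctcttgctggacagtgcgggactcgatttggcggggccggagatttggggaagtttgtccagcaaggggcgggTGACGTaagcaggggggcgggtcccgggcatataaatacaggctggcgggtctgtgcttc
JUND, chr19:18281623-18281872, minus strand: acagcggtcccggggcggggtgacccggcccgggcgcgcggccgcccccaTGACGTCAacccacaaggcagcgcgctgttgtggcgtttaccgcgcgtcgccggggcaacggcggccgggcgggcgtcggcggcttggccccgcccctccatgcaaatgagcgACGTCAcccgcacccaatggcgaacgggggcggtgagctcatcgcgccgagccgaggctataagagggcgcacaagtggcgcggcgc
EGR1, chr5:138465229-138465478, plus strand: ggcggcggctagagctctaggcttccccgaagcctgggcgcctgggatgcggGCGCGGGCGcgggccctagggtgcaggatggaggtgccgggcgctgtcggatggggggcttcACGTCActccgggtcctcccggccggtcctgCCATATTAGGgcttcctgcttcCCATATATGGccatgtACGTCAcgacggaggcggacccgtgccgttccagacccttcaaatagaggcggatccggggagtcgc
DUSP1, chr5:172771196-172771445, minus strand: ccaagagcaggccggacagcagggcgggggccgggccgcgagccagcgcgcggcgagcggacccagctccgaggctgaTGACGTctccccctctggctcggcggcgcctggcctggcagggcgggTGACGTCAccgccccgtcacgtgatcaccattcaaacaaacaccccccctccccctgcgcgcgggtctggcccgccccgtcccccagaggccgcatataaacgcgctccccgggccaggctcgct

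In FOS the core lay at bases -64 to -59 and in FOSB at -60 to -55, counted back from the start. JUND held a full CRE at -200 to -193 and a further core on the opposite strand at -87 to -82. EGR1 held 2 CArG boxes, at -105 to -96 and at -83 to -74, together with cores at -136 to -131 and -67 to -62 and an EGR element at -198 to -190. DUSP1 held a full CRE at -125 to -118 and another core at -172 to -167. None of the searched letters occurred in the windows of JUN, JUNB, IER2 or ATF3, which says only that these exact letters are not in these windows. Sequence outside the windows was not searched for any member, so a motif not listed for FOS or another member may lie there.

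All of the matches lay before the start. Over 35116 promoters of the same length, 7.98% held the core, 1.85% the full CRE, 9.43% the EGR element, 1.29% a CArG box and 4.95% the TRE. The TRE was found in 0 of the 9 members with a window, the CRE in 2 and the core in 5. Among the 10027 tested genes that had a window by symbol, a core in any of their windows was present in 1451 genes, or 14.5%. The share was 17.5% (139 of 793) for genes called higher after hemin, 12.4% (96 of 772) for those called lower and 14.4% (1216 of 8462) for the rest, given here as a description with no test. DUSP1 carried the core and was not called.

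After 108 h in hemin, 4 of the 10 members were called higher (FOS, FOSB, EGR1 and JUND), 1 was called lower (ATF3) and 5 were not called. Over all tested genes, 7.00% were called higher and 7.14% were called lower. The median log2 fold change of the 10 members was 0.19, against -0.005 over all genes tested. The members did not move as one block. In CPM, which are counts scaled by library size, both hemin libraries lay above both untreated ones for 5 members and below them for 4, and the libraries overlapped for DUSP1. Such separation was common, since 23.1% of all tested genes had both hemin libraries above and 34.7% had both below.

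**Figure D1:**
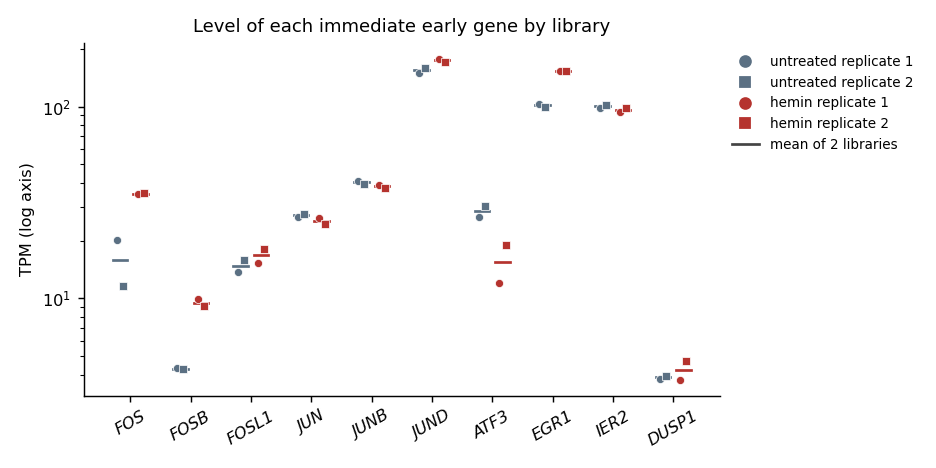
Level of each of the 10 genes in TPM (vertical log axis) in untreated (grey) and hemin (red) libraries, with replicate 1 as circles, replicate 2 as squares and the mean of 2 libraries as a line. The hemin points lie above the untreated points for FOS, FOSB, JUND and EGR1, below them for JUN, JUNB and ATF3, and overlap for FOSL1, IER2 and DUSP1.

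Of the FOS family, FOS and FOSB rose and FOSL1 was not called. FOS (ENSG00000170345, plus strand, chr14:75278826-75282230 of GRCh38), whose 4 exons encode the founding AP-1 subunit, had 156 and 102 counts before treatment and 289 and 314 after it. Per length, FOS stood at 20.24 and 11.64 TPM before and at 34.97 and 35.24 TPM after treatment. The untreated libraries of FOS disagreed with each other more than those of any other rising member, yet both hemin libraries were above both of them.

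The fitted change of FOS was 2.33-fold, a log2 fold change of 1.22 (SE 0.138, edgeR adjusted p = 8.4e-04). The 95% interval of the fold ran from 1.88 to 2.88. FOS ranked 24th by fold among the 1012 genes called higher, of which 32 had a log2 fold change of at least 1. Its size leaned on the untreated library used, being 0.98 on the log2 scale without untreated replicate 2 and 1.51 without untreated replicate 1, and the call held in both cases.

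FOSB (ENSG00000125740, plus strand, chr19:45467995-45475179) encodes a close relative of FOS that also dimerises with JUN proteins. It was read by 73 and 80 counts in untreated cells and by 155 and 161 counts after hemin. Its level was 4.35 and 4.27 TPM before and 9.88 and 9.13 TPM after treatment, with no overlap. The closeness of the untreated TPM depends on unlike assigned lengths, 3040 and 3506 bases. In CPM, which are not scaled by length, FOSB stood at 9.36 and 10.73 before and at 20.63 and 19.54 after. FOSB thus rose 2.05-fold (95% interval 1.66 to 2.53), a log2 fold change of 1.04 (SE 0.134, edgeR adjusted p = 0.00159), and ranked 31st by fold among the genes called higher.

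FOSL1 (ENSG00000175592, minus strand, chr11:65892049-65900573) encodes FRA-1, a FOS relative without a strong activation domain. Its counts were 101 and 98 without hemin and 112 and 133 with it. In TPM its 13.74 and 15.77 before treatment overlapped with 15.3 and 18.18 after it. The log2 fold change was 0.29 (SE 0.131, unadjusted p = 0.053, edgeR adjusted p = 0.177), with an interval of the fold up to 1.5, so FOSL1 was not called.

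Among the JUN family, JUND alone was called. JUND (ENSG00000130522, minus strand, chr19:18279694-18281622) is a gene without introns whose product is the JUN protein usually present in resting cells. Its counts were 1257 and 1249 in untreated cells and 1419 and 1500 after hemin, which is 149.51 and 159.5 TPM before and 177.4 and 171.59 TPM after. JUND was the member with the highest level in every library, and its groups did not overlap. The rise was small, 1.16-fold (95% interval 1.08 to 1.25), a log2 fold change of 0.21 (SE 0.047, edgeR adjusted p = 0.0175). It ranked 841st by fold among the 1012 genes called higher. Without untreated replicate 1 the log2 fold change was 0.18 and the call was lost (edgeR adjusted p = 0.0955).

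JUN (ENSG00000177606, minus strand, chr1:58776845-58784048), likewise a single exon, encodes the classical partner of FOS and a substrate of the JNK kinases. It was read by 448 and 443 counts before treatment and by 425 and 431 counts after it, or 26.69 and 27.54 TPM against 26.22 and 24.28 TPM. These values lie within a narrow range, with the hemin libraries slightly lower. The log2 fold change of -0.07 (SE 0.07, edgeR adjusted p = 0.594) was not called, and the interval of the fold, from 0.86 to 1.07, leaves out a change of the size seen in FOS.

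JUNB (ENSG00000171223, plus strand, chr19:12791486-12793315) encodes a JUN protein that often restrains proliferation. Its counts were 409 and 382 in untreated cells and 375 and 399 after hemin, which corresponds to 40.9 and 39.61 TPM before and 38.97 and 37.74 TPM after. JUNB was not called (log2 fold change -0.04, SE 0.069, edgeR adjusted p = 0.765), and its fold had an interval from 0.87 to 1.08. Its exon overlaps HOOK2 on the opposite strand, but the posterior SD of its count, which RSEM gives for the division of shared reads, was at most 0.98 reads.

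**Figure D2:**
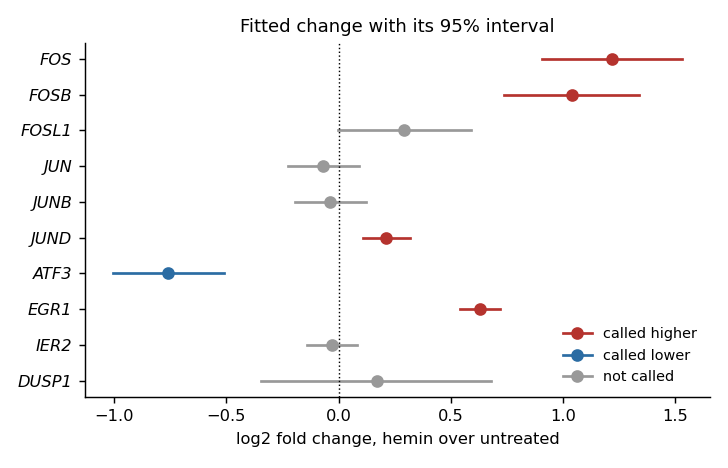
Fitted log2 fold change of each gene (horizontal axis, hemin over untreated) with its 95% interval from edgeR, coloured by call. FOS at 1.22 and FOSB at 1.04 lie farthest to the right, ATF3 at -0.76 farthest to the left, and the intervals of FOSL1, JUN, JUNB, IER2 and DUSP1 span 0.

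The balance of the families followed from these values. FOS, FOSB and FOSL1 together summed to 38.33 and 31.68 TPM in the untreated libraries and to 60.15 and 62.55 TPM after hemin. JUN, JUNB and JUND together summed to 217.1 and 226.65 TPM before and to 242.59 and 233.61 TPM after. The JUN family was therefore the more abundant at the RNA level throughout, and its summed level exceeded that of the FOS family by 5.66-fold and 7.15-fold before treatment and by 4.03-fold and 3.73-fold after it.

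Within the FOS family, FOS made up 52.8% and 36.7% of the summed level in untreated cells and 58.1% and 56.3% after hemin. FOSL1 made up 35.8% and 49.8% before and 25.4% and 29.1% after, so that FOSL1 was the leading FOS family RNA in 1 untreated library and FOS in the other. JUND supplied 68.9% to 73.5% of the JUN family sum in all 4 libraries.

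**Figure D3:**
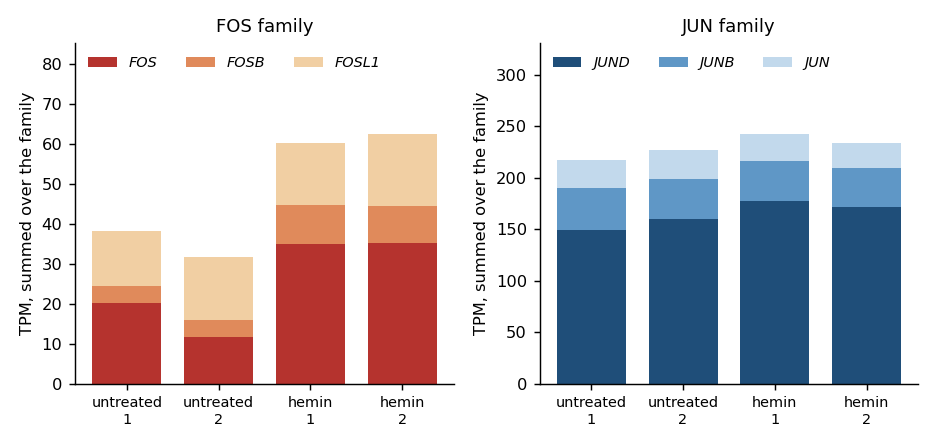
Summed TPM of the FOS family (left) and the JUN family (right) in each of the 4 libraries, with each bar divided by gene and each axis starting at 0. The FOS family bar rises from 38.33 and 31.68 TPM to 60.15 and 62.55 TPM, and JUND fills most of every JUN family bar.

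EGR1 (ENSG00000120738, plus strand, chr5:138465479-138469303), a zinc finger factor that binds GC-rich elements and is a standard readout of ERK signalling, gave the smallest p of the 10 members. It was read by 1792 and 1665 counts in untreated cells and by 2565 and 2821 counts after hemin. Its level rose from 103.38 and 99.59 TPM to 153.77 and 153.91 TPM, with the libraries of each group close together. The fold was 1.55 (95% interval 1.45 to 1.65), a log2 fold change of 0.63 (SE 0.041, edgeR adjusted p = 5.2e-05), which ranked 15th by p among all 14458 genes and 79th by fold among those called higher.

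Distances were taken on the log2 CPM of edgeR, centred on each gene's own mean over the 4 libraries. These values include its scaling factors and a small prior count, which shrinks changes of genes with low counts. The 3 tested genes nearest to EGR1 were MAPK8IP2, BTG1 and SLC20A1. Their distances were 0.02, 0.025 and 0.032. Their log2 fold changes, which come from the edgeR fit and not from these log2 CPM, were 0.69, 0.62 and 0.62. MAPK8IP2 encodes a scaffold of the JNK pathway, BTG1 an antiproliferative protein and SLC20A1 a phosphate transporter. NAB2, a corepressor that EGR1 is known to induce, had 188 and 203 counts before and 245 and 249 after hemin, but was not called (log2 fold change 0.33, edgeR adjusted p = 0.0548). NAB2 was named after its value had been seen.

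ATF3 (ENSG00000162772, plus strand, chr1:212565334-212620777) encodes a stress-induced leucine zipper protein that can pair with JUN proteins and often represses. It was the only member called lower, with 218 and 210 counts in untreated cells and 112 and 143 counts after hemin. In TPM it stood at 26.69 and 30.37 before and at 12.03 and 18.96 after treatment. Both hemin libraries were below both untreated ones, and they differed from each other more in TPM than in counts.

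The fitted fold of ATF3 was 0.59 (95% interval 0.5 to 0.7), a log2 fold change of -0.76 (SE 0.11, edgeR adjusted p = 0.00317), and it ranked 277th by size among the 1033 genes called lower. RSEM assigned ATF3 a mean transcript length of 1504 and 1326 bases in the untreated libraries and of 1772 and 1320 bases in the hemin libraries. The groups overlapped in this length, so this length did not separate them. Of the 10 members, the assigned length separated the groups for FOSB, at 3040 and 3506 bases before and 2953 and 3019 after hemin, and for JUN, at 3038.89 and 3019.68 bases before and 3049.75 and 3039.38 after. The counts that edgeR tested are not scaled by length. In untreated cells the ratio of ATF3 to FOS, both in TPM, was 1.32 and 2.61, and after hemin it was 0.34 and 0.54, so that the order of these genes turned.

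IER2 (ENSG00000160888, plus strand, chr19:13150411-13154911), a nuclear regulator of transcription induced by serum, was abundant and flat. Its counts were 1196 and 1204 before and 1142 and 1222 after hemin, or 98.0 and 102.31 TPM against 93.52 and 98.22 TPM. It was not called (log2 fold change -0.03, SE 0.049, edgeR adjusted p = 0.74), and its interval allows a fold between 0.91 and 1.06. IER2 overlaps exons of 2 long noncoding RNA genes on the opposite strand, and the posterior SD of its count was between 19.65 and 32.97 reads, the highest of the members. The listed options of the quantification name no strand setting.

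DUSP1 (ENSG00000120129, minus strand, chr5:172768096-172771195) is not a transcription factor but a phosphatase that removes the activating phosphates from MAP kinases. It had the lowest level, with 42 and 42 counts in untreated cells and 40 and 55 counts after hemin, or 3.81 and 3.95 TPM against 3.77 and 4.72 TPM. The groups overlapped, and the log2 fold change of 0.17 (SE 0.228, edgeR adjusted p = 0.69) was not called. Its interval, the widest of the 10 on the log2 scale, allowed a fold between 0.79 and 1.6, and a fold as large as the 1.55 of EGR1 lies inside it.

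Ordered by mean TPM, the untreated members ran from JUND at 154.5 ± 7.06 (SD, n = 2), EGR1 at 101.48 ± 2.68 and IER2 at 100.16 ± 3.05 through JUNB at 40.25 ± 0.91, ATF3 at 28.53 ± 2.6 and JUN at 27.12 ± 0.6. FOS at 15.94 ± 6.08, FOSL1 at 14.76 ± 1.44, FOSB at 4.31 ± 0.06 and DUSP1 at 3.88 ± 0.1 followed. The libraries of EGR1 and IER2, of ATF3 and JUN, and of FOS and FOSL1 overlapped, so the order within these pairs is not resolved. The order depends on scaling by length: in CPM, which are not scaled by length, EGR1 stood above JUND, at 229.69 and 223.33 against 161.12 and 167.53 in untreated cells.

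In hemin-treated cells the order was JUND at 174.5 ± 4.11, EGR1 at 153.84 ± 0.1, IER2 at 95.87 ± 3.32, JUNB at 38.36 ± 0.87 and FOS at 35.11 ± 0.19. JUN at 25.25 ± 1.37, FOSL1 at 16.74 ± 2.04, ATF3 at 15.5 ± 4.9, FOSB at 9.51 ± 0.53 and DUSP1 at 4.24 ± 0.67 came after. Here only the neighbours FOSL1 and ATF3 overlapped. By mean TPM, FOS moved from the 7th to the 5th place and ATF3 from the 5th to the 8th. Overlap with a neighbour leaves the 7th place of FOS and both places of ATF3 unresolved. All 10 members together summed to 487.31 and 494.55 TPM before and to 565.83 and 571.97 TPM after.

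The genes around the members were taken from 6 lists of AP-1 partners, other immediate early genes, upstream regulators, MAP kinase phosphatases, ATF3 stress partners and AP-1 targets. Of 99 listed genes 82 were tested, 5 were called higher and 11 lower, and their median log2 fold change was -0.05. Over all tested genes, 7.00% were called higher and 7.14% lower, which is the background for these and the later lists. The other 34 immediate early genes gave 25 tested genes, with 4 called higher, 2 lower and a median of -0.05.

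The called immediate early genes included both directions. BTG1, an antiproliferative gene, rose from 701 and 659 counts to 993 and 1113 (log2 fold change 0.62, edgeR adjusted p = 2.2e-04). IER3, a stress-inducible survival gene, rose from 151 and 165 counts to 214 and 266 (0.59, edgeR adjusted p = 0.0092), a call lost without untreated replicate 1 (edgeR adjusted p = 0.0658). MYC, the proliferation factor with the highest level of the list, rose from 238.61 and 234.09 TPM to 299.14 and 288.72 TPM (log2 fold change 0.38, edgeR adjusted p = 6.7e-04).

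ZFP36L2, which binds AU-rich elements in RNA, rose by 0.31 on the log2 scale (edgeR adjusted p = 0.0115), and lost its call without untreated replicate 2 (edgeR adjusted p = 0.0651). KLF10, a zinc finger factor of TGF-β signalling, fell from 395 and 392 counts to 183 and 220 (log2 fold change -0.97, edgeR adjusted p = 2.7e-04). BTG2, a relative of BTG1 that p53 induces, fell from 559 and 553 counts to 374 and 399 (log2 fold change -0.53, edgeR adjusted p = 0.00122). BTG1 and BTG2 thus moved in opposite directions, as FOS and ATF3 did.

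Of the 10 AP-1 partners, 9 were tested, 0 were called higher and 1 lower, with a median log2 fold change of -0.06. At an unadjusted p below 0.05 the count higher was also 0, and DESeq2 called 0 in either direction. BATF2, a leucine zipper protein that pairs with JUN proteins, fell from 93 and 84 counts to 53 and 59 (log2 fold change -0.67, edgeR adjusted p = 0.0277), but it was not called by DESeq2 (adjusted p = 0.188) or with any 1 library left out. MAFG, a small MAF protein and the partner with the highest level, stayed at 35.85 and 36.01 TPM before and 37.85 and 36.72 TPM after (log2 fold change 0.01, edgeR adjusted p = 0.954).

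Of the 23 upstream regulators, which include serum response factor, its ELK cofactors, CREB1 and the MAP kinases, all 23 were tested, 0 were called higher, 1 lower, and the median log2 fold change was 0.02. At an unadjusted p below 0.05, 5 were higher and 4 lower, and DESeq2 called 0 in either direction. RPS6KA1, which encodes the kinase RSK1, was called lower with 267 and 243 counts before and 199 and 219 after (-0.29, edgeR adjusted p = 0.0494). The call was lost with RLE scaling factors (edgeR adjusted p = 0.0513) and with any 1 library left out, and in TPM its groups overlapped at 18.47 and 16.8 before and 19.88 and 16.24 after.

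The phosphatases that switch off MAP kinases, DUSP1 aside, gave 6 tested genes of 9, with 1 called lower, 0 higher and a median log2 fold change of -0.35. At an unadjusted p below 0.05 the count higher was 0, and DESeq2 called 0 higher and 1 lower. DUSP8, which acts on JNK and p38, fell from 63 and 47 counts to 24 and 20 (log2 fold change -1.32, SE 0.267, edgeR adjusted p = 0.0123), a call lost without untreated replicate 1 (edgeR adjusted p = 0.0864). DUSP7, the highest of them, had 9.87 and 8.67 TPM before and 8.58 and 8.81 TPM after, and was not called (edgeR adjusted p = 0.767).

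Of the 10 tested genes that share stress induction with ATF3, 5 were called lower and 0 higher, with a median log2 fold change of -0.18. Among all tested genes, 7.14% were called lower and 7.00% higher. CHAC1, a glutathione-degrading enzyme of the ATF4 pathway, fell from 284 and 273 counts to 149 and 165 (log2 fold change -0.83, edgeR adjusted p = 6.7e-04). HSPA5, the main chaperone of the endoplasmic reticulum, fell from 497.79 and 513.57 TPM to 278.06 and 286.4 TPM (log2 fold change -0.80, edgeR adjusted p = 1.9e-05).

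DDIT3, which encodes CHOP, fell by 0.39 on the log2 scale (edgeR adjusted p = 0.0247), a call lost without untreated replicate 1 (0.0791), untreated replicate 2 (0.103) or hemin replicate 2 (0.11), and not made by DESeq2 (0.179). ASNS, the asparagine synthetase and the gene with the highest level here, fell from 592.78 and 602.82 TPM to 452.41 and 449.49 TPM (log2 fold change -0.36, edgeR adjusted p = 8.0e-04). TRIB3, the fifth and named after its value was seen, fell by 0.16 on the log2 scale (edgeR adjusted p = 0.0419), a call lost with DESeq2 (0.144) and with each of the 4 libraries left out (0.0721 to 0.179). ATF4 itself was not called (log2 fold change 0.09, edgeR adjusted p = 0.162). At an unadjusted p below 0.05 the list held 1 genes higher, and DESeq2 called 0 higher and 3 lower.

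Known AP-1 target genes showed no common direction. Of 13 listed genes 9 were tested, 1 was called higher and 1 lower, with a median log2 fold change of 0.06, and MMP3 and MMP9 were at 0 in all 4 libraries. CXCL8, which encodes interleukin 8, fell from 131 and 137 counts to 75 and 82 (log2 fold change -0.78, edgeR adjusted p = 0.00688). Vimentin (VIM), the most abundant target, was not called at 856.5 and 884.04 TPM before and 807.06 and 832.37 TPM after (edgeR adjusted p = 0.432).

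**Figure D4:**
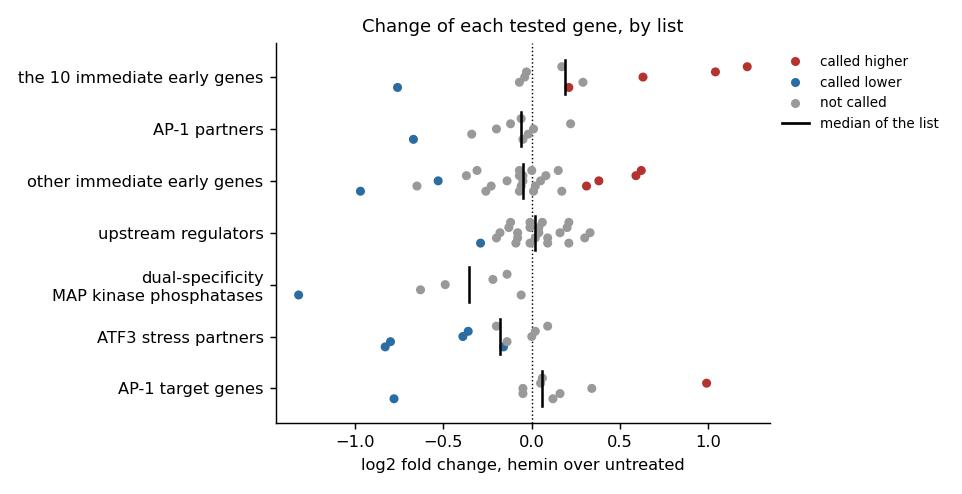
Log2 fold change of each tested gene (horizontal axis, hemin over untreated) for the 10 immediate early genes and the 6 lists around them, coloured by call, with the median of each list as a black bar. Of the groups shown, the 10 genes have the highest median, 0.19, and the phosphatases the lowest, -0.35. Called genes of both directions occur among the other immediate early genes. The erythroid markers, which are not shown, had a median of 0.23.

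Heat shock genes respond quickly to how cells are handled, as immediate early genes are known to do, and were read beside the members. Of 9 tested, 3 were called higher and 1 lower, with a median log2 fold change of 0.13 and a summed level of 1693.64 and 1711.98 TPM before and 2179.65 and 2193.94 TPM after. HSPA8, a constitutive chaperone, rose by 0.56 on the log2 scale (edgeR adjusted p = 7.5e-05), HSPH1 by 0.38 (0.00297) and HSP90AA1 by 0.29 (0.00206). HSPA1A, the classical inducible gene, had 1240 and 1200 counts before and 1109 and 1225 after and was not called (edgeR adjusted p = 0.333), and HSPA6, a strictly inducible one, fell from 83 and 64 counts to 40 and 44 (log2 fold change -0.81, edgeR adjusted p = 0.0287), a call lost with DESeq2 (0.15), without untreated replicate 1 (0.16) and without hemin replicate 2 (0.0548). The part of handling in the rise of FOS, FOSB and EGR1 was not tested.

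Of the 9 erythroid markers 3 were called higher and 0 lower, with a median log2 fold change of 0.23 and a summed level of 3854.63 and 4057.36 TPM before and 4992.82 and 4763.81 TPM after. HBE1, the embryonic β-like globin and the highest of them, rose by 0.41 on the log2 scale (edgeR adjusted p = 4.4e-04), LMO2 by 0.38 (0.00975) and the transferrin receptor TFRC by 0.23 (0.0067), whereas GATA1 was not called (edgeR adjusted p = 0.689). At an unadjusted p below 0.05 the count lower was 0, and DESeq2 called 0 lower and 3 higher.

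The calls of the members were also set against 14 alternatives of processing. EGR1 was past the threshold in 13 of them, FOS, FOSB and ATF3 in 11 each and JUND in 10, and the direction of these 5 genes was kept in all 14. The alternatives that lost FOS, FOSB and ATF3 were the 3 limma fits on log2 TPM, in which the adjusted p was 0.11 to 0.349 for FOS, 0.0864 to 0.303 for FOSB and 0.141 to 0.383 for ATF3. The other 5 members were past it in 0 of the 14, by edgeR, DESeq2 and limma alike, and none of them had an unadjusted edgeR p below 0.05.

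**Figure D5:**
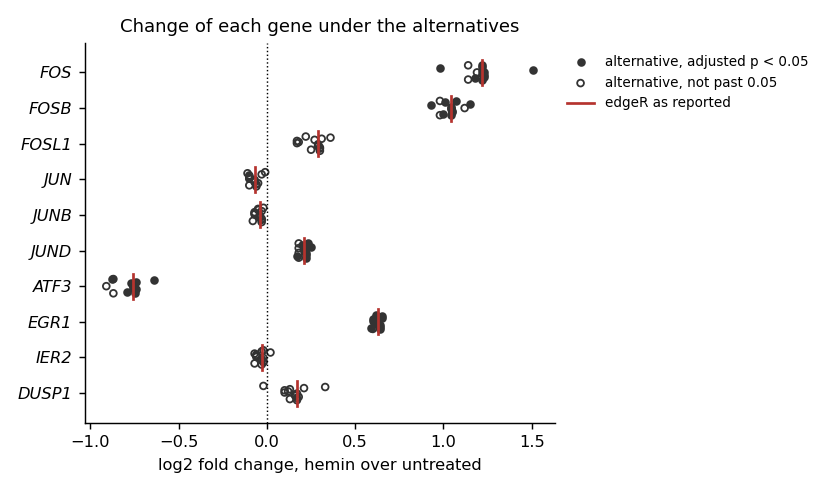
Log2 fold change of each gene (horizontal axis, hemin over untreated) under each of the 14 alternatives, filled where the adjusted p was below 0.05 and open where it was not, with the reported edgeR value as a red bar. The points of EGR1 stay between 0.59 and 0.65, those of FOS spread from 0.98 to 1.51, and those of IER2 and DUSP1 lie on both sides of 0.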

How the data were processed

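Per the labels and methods, libraries were made from the poly(A) fraction of K562 RNA and read over 50 bases. The authors trimmed them with Trimmomatic 0.39 and ran RSEM 1.3.1 on the Ensembl 106 annotation of GRCh38, each library separately. The deposited expected counts are estimates of reads per gene with shared reads divided, and the deposited posterior mean counts come from the same run. The authors' TPM are scaled by effective length. Lengths exceeded effective lengths by a median of 48.4 bases although the stated mean fragment length was 255, and the cause was not tested. The TPM orders and family ratios, which compare genes of different length, depend on these effective lengths. RSEM also gives a TPM interval for each gene. The TPM of EGR1, JUN, JUNB, JUND and IER2 lay above it in all 4 libraries. EGR1 in untreated replicate 1 was 103.38 against 88.68 to 97.3. FOSB in untreated replicate 2 lay below it, at 4.27 against 4.61 to 8.85, and otherwise inside. FOS, FOSL1, ATF3 and DUSP1 lay inside it in every library. The SDs given for TPM do not cover this disagreement, whose cause was not tested. FPKM and the contact data were not used here.

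Here the quasi-likelihood test of edgeR 4.0.16 was fitted to the rounded expected counts of the 14458 genes that filterByExpr kept, with TMM factors, a single term for hemin and Benjamini-Hochberg adjustment over all genes. SE is the log2 fold change divided by the square root of the F statistic. The variance of each gene was moderated toward other genes, with a median of 7.36 prior against 2 residual degrees of freedom. DESeq2 gave a larger SE for every member, such as 0.237 against 0.134 for FOSB and 0.192 against 0.11 for ATF3. The edgeR intervals are therefore narrower than those of DESeq2 would be. Levels between genes were compared in TPM. With 2 libraries against 2, no exact permutation test of a single gene can pass 0.05. Counting by RSEM names no strand. The 2 libraries of a group differed by more than counting noise (mean chi-square per gene 1.8 untreated, 2.16 hemin). GENCODE 44 gave positions and matched 99.84% of genes. The procedure was also run on simulated counts drawn with a single common dispersion (0.00118) for all genes. Such counts lack the differences in spread between real genes, so that run says nothing about the calls reported here.

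The members and lists were chosen with earlier results of these data known. Named genes were all members, up to 4 called genes per direction and list by size of change, the gene with the highest mean TPM of each list, and the 3 genes nearest to EGR1. Alternatives were RLE factors, library size, DESeq2 1.42.0, no filter, at least 20 counts, a replicate block, posterior mean counts, limma 3.58.1 on log2(TPM + 1) with and without the filter and on log2(TPM + 0.1), and each library left out, where a lone library is assumed to vary like the others. The values of 2 genes that this rule names are not reported here.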

Additional observations from a re-analysis of the deposited data

How the results depend on the processing

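All 14 alternatives kept the direction of FOS, FOSB, JUND, EGR1 and ATF3. The log2 fold change of IER2 turned to 0.02 without untreated replicate 2 and that of DUSP1 to -0.02 without hemin replicate 2, both uncalled; over the libraries left out IER2 ran from -0.07 to 0.02 and DUSP1 from -0.02 to 0.33. That of RPS6KA1 was 0.03 in all 3 limma fits. The cause of these changes was not tested. Limma on log2(TPM + 1) called 1 member higher and 0 lower, 0 listed pathway genes higher and 3 lower, and 14 genes of all higher and 33 lower. On log2(TPM + 0.1) it called 1 and 0 members, 0 and 3 pathway genes, and 15 and 34 of all genes. Without its filter it called 0 in every group, while 4 members were higher and 1 lower at an unadjusted p below 0.05, as in edgeR. DESeq2 kept the 5 member calls and called 7 pathway genes lower, and 602 genes of all higher and 484 lower.

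With each library left out in turn, 3 to 4 members were called higher and 1 lower. Pathway genes called numbered 3 to 6 higher, the lowest without untreated replicate 1, and 7 to 8 lower, with 7 without either untreated library or without hemin replicate 2. Of all genes, 469 to 934 were called higher and 512 to 884 lower, the lowest without untreated replicate 1, and 537 and 532 without untreated replicate 2. JUND lost its call without untreated replicate 1. The numbers of the replicates mark no stated pairing, and deviations of same-numbered libraries from their group means were uncorrelated over genes (r = 0.005). With a replicate block, 4 members were called higher and 1 lower, and 855 and 886 of all genes, with 5 pathway genes higher and 9 lower. Library size alone as scaling called 729 genes higher and 1358 lower, against 1012 and 1033. Depth limits DUSP1 most, with 40 to 55 counts per library.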
